A study of Drosophila melanogaster with 3 samples.

Results

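The 6 genes that encode the fibroblast growth factor (FGF) receptors, ligands and adaptor of Drosophila were examined for binding of Schnurri (Shn). They were chosen by name: btl (breathless) and htl (heartless), which encode the receptors, bnl (branchless), pyr (pyramus) and ths (thisbe), which encode the ligands, and stumps, which encodes the adaptor. They are 6 of 13945 protein-coding genes on 6 chromosome arms, and were chosen with earlier results of these data known. A peak was assigned to a gene when its summit lay inside the gene or within 10 kb of either end, and by this rule 6 of the 3586 reproducible peaks and 76 of the 30000 pooled peaks belonged to the 6 genes.

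The peaks came from chromatin immunoprecipitation followed by sequencing (ChIP-seq) on whole embryos of mixed sex, aged 0 to 24 h, from a transgenic line stably expressing Shn with GFP fused at its C-terminus. The description of the samples gives an antibody against GFP, while their antibody label reads shn; the description was followed. There were 3 biological replicates of this 1 group, so no contrast between conditions could be made, and no test was run. Each replicate list, and the pooled list, holds 30000 peaks together with background regions, and the reproducible list is the authors' list thresholded by the irreproducible discovery rate (IDR), a procedure that compares ranks between replicates. All 3586 of its peaks are the 3586 of highest signal in the pooled list, so being in it here amounts to passing a pooled signal of 91.6, and a peak in it can lack a match in a replicate. Signal and −log10 q are the authors' own values for each peak. Read depth is unknown, and signal was compared only within a list, so a peak is followed between replicates by its rank, counted from 1 for the highest signal. The lists were unlike in strength: 2385 peaks reached a −log10 q of 2 in replicate 1, 5289 in replicate 2 and 7213 in replicate 3. In whole embryos, a peak found in few cells and a weak peak found in many cells cannot be told apart. The labels do not state the expression of the tagged protein by cell type.

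As background, FGF signalling in the fly uses few ligands and receptors. Bnl is secreted by cells around the developing trachea and guides migrating tracheal cells, which carry Btl. Pyr and Ths act through Htl in the spreading mesoderm and in the precursors of heart and muscle. Stumps, also called Dof, binds the receptors and is needed for both to signal through Ras and MAP kinase. Shn is a zinc finger protein recruited by Mad and Medea, the Smads activated through the BMP ligand Dpp, and it represses genes such as brk. Dpp signalling also acts in tracheal branching and in the dorsal mesoderm, tissues in which the FGF genes act.

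Sequence around 6 summits is shown because these are the sites on which the results for bnl, htl and stumps turn. Of these, 4 are reproducible peaks, and the other 2 are peaks of the pooled list with a −log10 q of at least 2. Each run is the Release 6 (dm6) reference on the strand of the gene named, 5′ to 3′. It covers 100 bp on each side of the summit, except at the bnl start site, where only the bases upstream of the transcript are shown. Capitals mark matches, on either strand, to the motifs ACGTG (at bnl) and GAGAG (at stumps), which are described with the other motifs searched.
bnl, upstream of the start site, chr3R:19836818-19836917, minus strand: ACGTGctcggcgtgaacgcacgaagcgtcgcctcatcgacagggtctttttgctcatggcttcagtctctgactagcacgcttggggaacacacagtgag
bnl first intron, chr3R:19831025-19831225, minus strand: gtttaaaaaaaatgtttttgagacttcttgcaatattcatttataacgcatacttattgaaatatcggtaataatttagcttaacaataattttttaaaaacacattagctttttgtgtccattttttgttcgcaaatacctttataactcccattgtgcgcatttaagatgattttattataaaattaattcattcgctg
htl intron, upstream of the internal start site, chr3R:18049564-18049764, minus strand: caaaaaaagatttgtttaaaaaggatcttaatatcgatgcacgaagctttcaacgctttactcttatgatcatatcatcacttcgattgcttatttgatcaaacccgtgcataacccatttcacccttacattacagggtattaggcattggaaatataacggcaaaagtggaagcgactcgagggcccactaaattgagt
stumps upstream, in CG7987, chr3R:14575254-14575454, plus strand: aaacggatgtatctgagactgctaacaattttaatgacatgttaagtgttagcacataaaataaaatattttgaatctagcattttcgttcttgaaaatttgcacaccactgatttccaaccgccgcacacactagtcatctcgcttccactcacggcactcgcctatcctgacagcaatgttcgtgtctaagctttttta
stumps intron, upstream of an internal start site, chr3R:14591013-14591213, plus strand: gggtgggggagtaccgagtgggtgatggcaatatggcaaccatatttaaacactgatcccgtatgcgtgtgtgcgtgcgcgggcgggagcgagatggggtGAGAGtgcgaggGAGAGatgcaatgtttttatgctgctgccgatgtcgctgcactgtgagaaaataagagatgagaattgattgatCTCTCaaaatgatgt
stumps downstream, near CG14853, chr3R:14608961-14609161, plus strand: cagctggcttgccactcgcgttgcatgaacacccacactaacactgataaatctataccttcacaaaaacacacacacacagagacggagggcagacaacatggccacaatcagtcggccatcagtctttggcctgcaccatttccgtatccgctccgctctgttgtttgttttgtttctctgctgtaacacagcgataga

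Schnurri peaks of the reproducible list lay in the windows of 4 of the 6 genes. There were 2 at ths, 2 at stumps, 1 at bnl and 1 at htl, and btl and pyr had none. The strongest was inside ths, with a pooled signal of 230.2 and rank 773 of 3586. The other 5 ranked from 2178 to 3525, with signals from 126 to 92.7, against a median of 142 over all reproducible peaks. Thus 1 of the 6 member peaks was at or above that median.

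**Figure D1:**
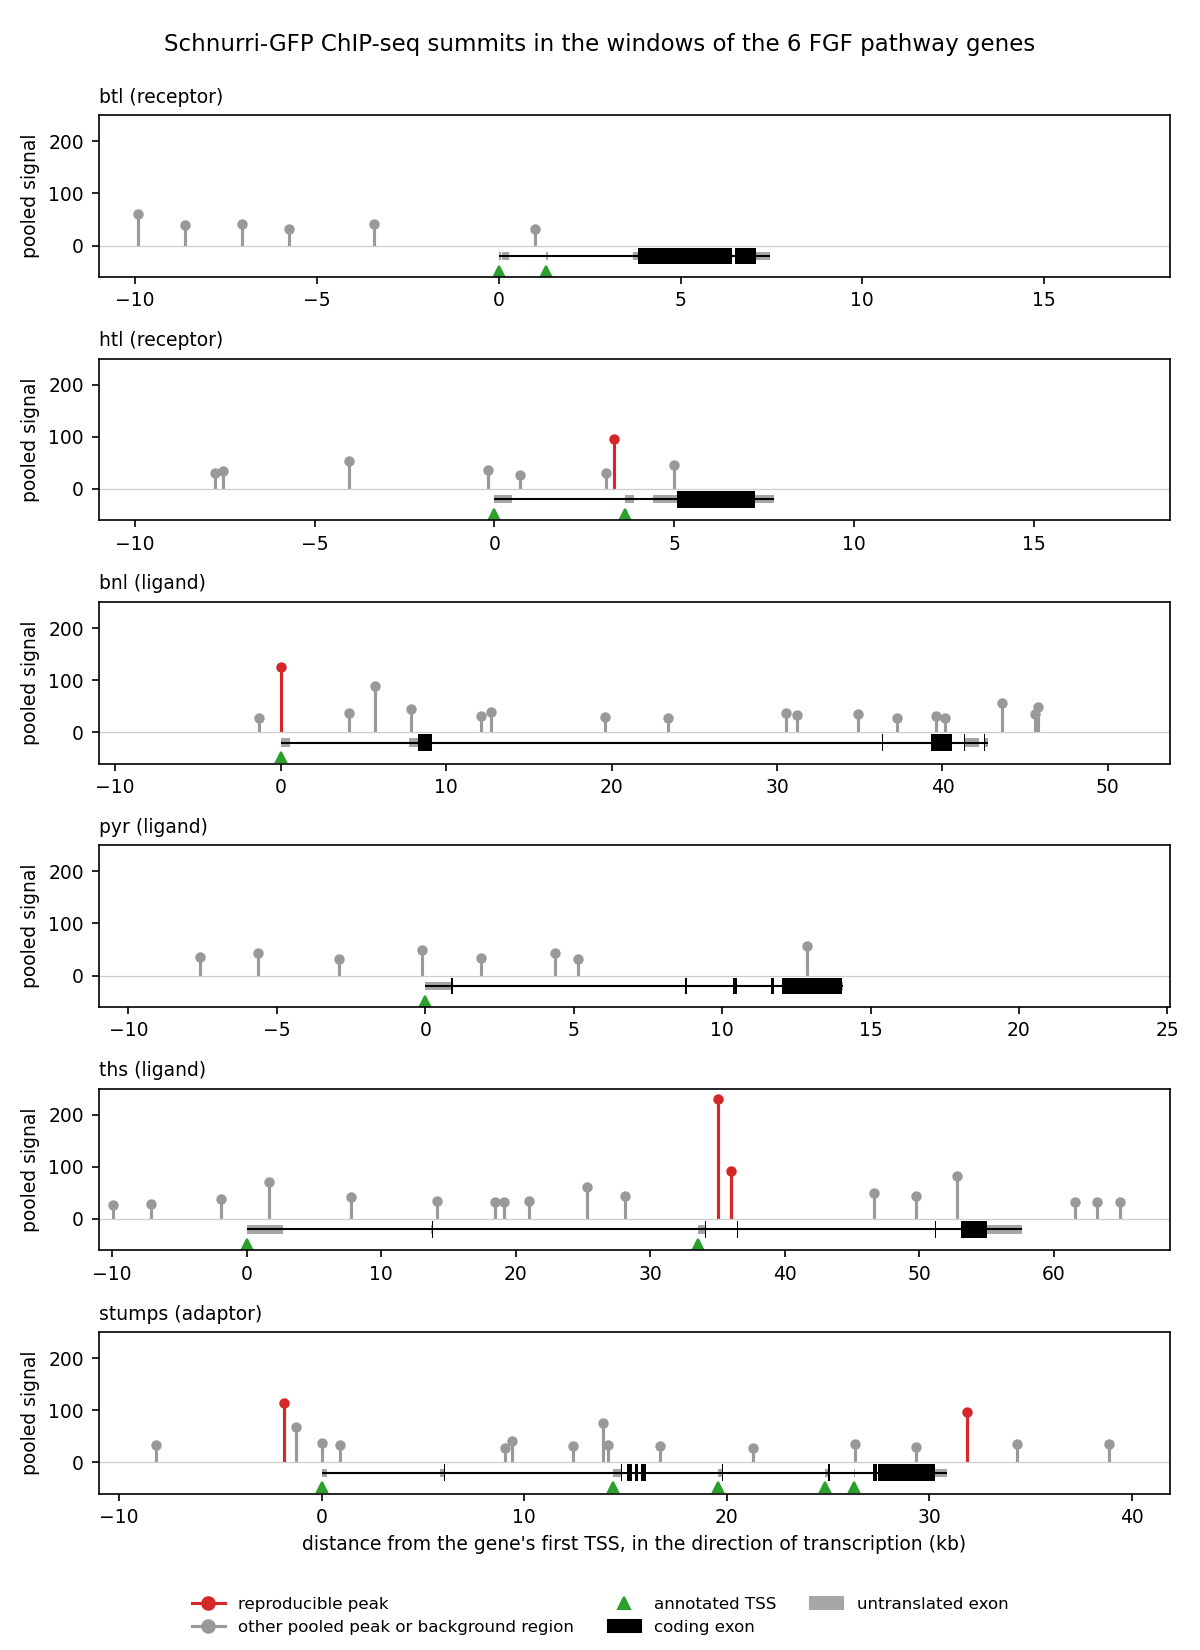
Maps of the 6 windows, each drawn along the gene's own strand with distance in kb from its first transcription start site (TSS) on the horizontal axis and pooled signal on the vertical axis. Each stem is a pooled peak, red for reproducible and grey for other pooled peaks, with exons as boxes and TSSs as triangles; ths has the tallest, at 230.2, and btl and pyr have no reproducible peak.

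The receptor gene btl (FBgn0285896, 3L from 14075772 to 14083229, plus strand) had 6 pooled summits in its 27458 bp window and no reproducible one. The pooled peak of highest signal, 60.3 at rank 6735, was not near a start site of btl. Its summit at position 14065864 lay 9908 bp upstream of btl, in coding sequence of the neighbouring gene Frl, which encodes a formin. It had no match in replicate 1 and ranked 10020 in replicate 2 and 7045 in replicate 3. In all, 4 of the 6 summits were in coding sequence of Frl, and 1 of the 6 was nearest to a TSS of btl. That summit, at position 14076778, lay 287 bp upstream of the internal TSS at position 14077065. Its pooled signal of 31.1 gave it rank 23425 of 30000, and it ranked 12734 in replicate 2 and 29511 in replicate 3, with no match in replicate 1. The nearest reproducible summit was 20368 bp from the first TSS of btl.

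The other receptor gene, htl (FBgn0010389, 3R from 18045216 to 18052984, minus strand), had 8 pooled summits in 27769 bp, and no other protein-coding gene has a TSS in that window. One peak was reproducible. Its summit at position 18049664 lay 298 bp upstream of the internal TSS at 18049366, from which 2 of the 3 transcripts start, and inside the only intron of the longest transcript (18048571 to 18052501). Its pooled signal was 95.6, at rank 3344 of 3586. The matched peaks had a signal of 22.6 in replicate 1 (rank 4087), 40.3 in replicate 2 (rank 2616) and 24.3 in replicate 3 (rank 9710). Thus replicate 2 alone placed it among its 3586 strongest peaks. At the first TSS of htl, at 18052984, the closest pooled summit was 189 bp upstream, with a signal of 36.6 and rank 17120, and replicate 1 had no match to it.

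The ligand gene bnl (FBgn0014135, 3R from 19794073 to 19836817, minus strand) had 18 pooled summits in 62745 bp, and its reproducible peak was at the TSS. The summit fell on the first base of the 5' UTR, position 19836817, the single TSS of all 3 transcripts, with a pooled signal of 126, a −log10 q of 3.76 and rank 2178. The replicates differed at this site. The signal was 12.3 in replicate 1 (rank 20469), 35.9 in replicate 2 (rank 3149) and 59.0 in replicate 3 (rank 1909). The −log10 q was 0.176 in replicate 1, 3.32 in replicate 2 and 3.66 in replicate 3. The peak was thus weak in replicate 1 and among the strongest 3586 in the other two. A further pooled peak of bnl, with signal 88.0 and rank 3807, lay in the first intron at position 19831125, 5692 bp downstream of the TSS. It was just outside the reproducible list, and its best rank was in replicate 1: 3249, against 6786 in replicate 2 and 5636 in replicate 3. Its −log10 q was 1.31 in replicate 1, 1.37 in replicate 2 and 2.59 in replicate 3.

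The ligand gene ths (FBgn0033652, 2R from 11756817 to 11814424, plus strand) carried the member peak of highest signal. Its summit at position 11791850 (peak 11791650 to 11792049) lay 1484 bp downstream of the internal TSS at 11790366, in the first intron (11790935 to 11793227) of the transcript that starts there. The same position is in the second intron of the longer transcript (11770583 to 11793227). The signal was 69.1 in replicate 1, 74.5 in replicate 2 and 85.7 in replicate 3, each within that replicate's own scale. The ranks were 671, 917 and 876 in replicates 1, 2 and 3, so that the highest rank number was 1.37 times the lowest, and the summits of the replicates lay within 44 bp of the pooled one. By pooled signal its neighbours in the reproducible list, each also at 230.2, were a peak 147 bp upstream of CG32115 at rank 772 and one 2434 bp downstream of the TSS of Wwox, which encodes an oxidoreductase, at rank 774. The other reproducible peak of ths was in the same introns, at position 11792809, 2443 bp downstream of the internal TSS. With a signal of 92.7 it ranked 3525, close to the end of the list. It had no match in replicate 1, rank 8535 in replicate 2 (signal 20.04) and rank 2434 in replicate 3 (signal 52.0). Neither was within 1 kb of a TSS of ths. Of the 19 pooled summits in the 77608 bp window, 0 lay within 1 kb of either TSS of ths. The pooled summit closest to the first TSS was 1658 bp downstream, in the 5' UTR, with a signal of 70.3 and rank 5292. In the last intron, 19202 bp downstream of the internal TSS, a pooled peak with a signal of 82.9 ranked 4125, and was among the strongest 3586 only in replicate 2, at rank 2909.

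The ligand gene pyr (FBgn0033649, 2R from 11712263 to 11726345, plus strand), which lies on the same arm as ths and signals through the same receptor, had 8 pooled summits in 34083 bp and no reproducible one. The strongest, with a signal of 56.5 and rank 7518, was in coding sequence, 12856 bp downstream of the only TSS. It ranked 2585 in replicate 1 and 16998 in replicate 3 and had no match in replicate 2. At the promoter a pooled summit 115 bp upstream of the TSS, with a signal of 49.5 and rank 9537, was matched in replicate 3 alone, where its signal was 48.0, its −log10 q 3.28 and its rank 2857. Each of these peaks was therefore among the strongest 3586 of 1 replicate. The reproducible summit nearest to the TSS of pyr was 50631 bp away.

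The adaptor gene stumps (FBgn0020299, 3R from 14577217 to 14608079, plus strand) had 17 pooled summits in 50863 bp, and 2 reproducible peaks flanked the gene without lying in it. Upstream, the summit at position 14575354 lay 1863 bp from the first TSS of stumps and 533 bp downstream of the TSS of CG7987, inside that gene and outside its exons. Its pooled signal was 114, at rank 2580. The signal was 49.1 in replicate 1 (rank 1246), 40.9 in replicate 2 (rank 2565) and 20.5 in replicate 3 (rank 13218), so that here replicate 3 was the weak one. Downstream, the intergenic summit at position 14609061 lay 581 bp upstream of the nearest TSS, that of CG14853, and 5578 bp from the last TSS of stumps. Its pooled signal was 97.4, at rank 3252. The signal was 23.1 in replicate 1 (rank 3894), 19.4 in replicate 2 (rank 9051) and 56.1 in replicate 3 (rank 2108). The matched summit was offset from the pooled one by -218 bp in replicate 1, -6 bp in replicate 2 and 3 bp in replicate 3. Both reproducible peaks were thus closer to the start of another gene than to one of the 5 TSSs of stumps. Within stumps the peak of highest signal, 74.7 at rank 4849, lay at position 14591113, 507 bp upstream of the internal TSS at 14591620. It was outside the reproducible list, whose lowest pooled signal was 91.6. It was matched in every replicate, with similar ranks of 5555, 5167 and 6494 in replicates 1, 2 and 3. The first TSS of stumps had a pooled summit 6 bp downstream, with a signal of 37.3 and rank 16473.

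Across the 3 replicates, 1 of the 6 member peaks, that of ths at position 11791850, was in the top list of every replicate, meaning that it overlapped one of the 3586 strongest peaks. The bnl peak and the upstream stumps peak were in 2 top lists, and the other 3 in 1. Over all reproducible peaks, 53.8% were in 3 top lists, 30.6% in 2 and 14.5% in 1. Among all reproducible peaks below the median signal, to which 5 of the 6 member peaks belong, the shares were 20.4%, 48.9% and 28.7%. With replicate 1 left out, 2 member peaks were in every remaining top list, and with replicate 3 left out there were also 2. The count was 1 without replicate 2. For the 5 member peaks matched in every replicate, the highest rank number divided by the lowest ran from 1.37 at ths to 10.7 at bnl, with a median of 4.29. The median over all reproducible peaks matched in every replicate was 2.36, and 2.61 for those below the median signal.

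**Figure D2:**
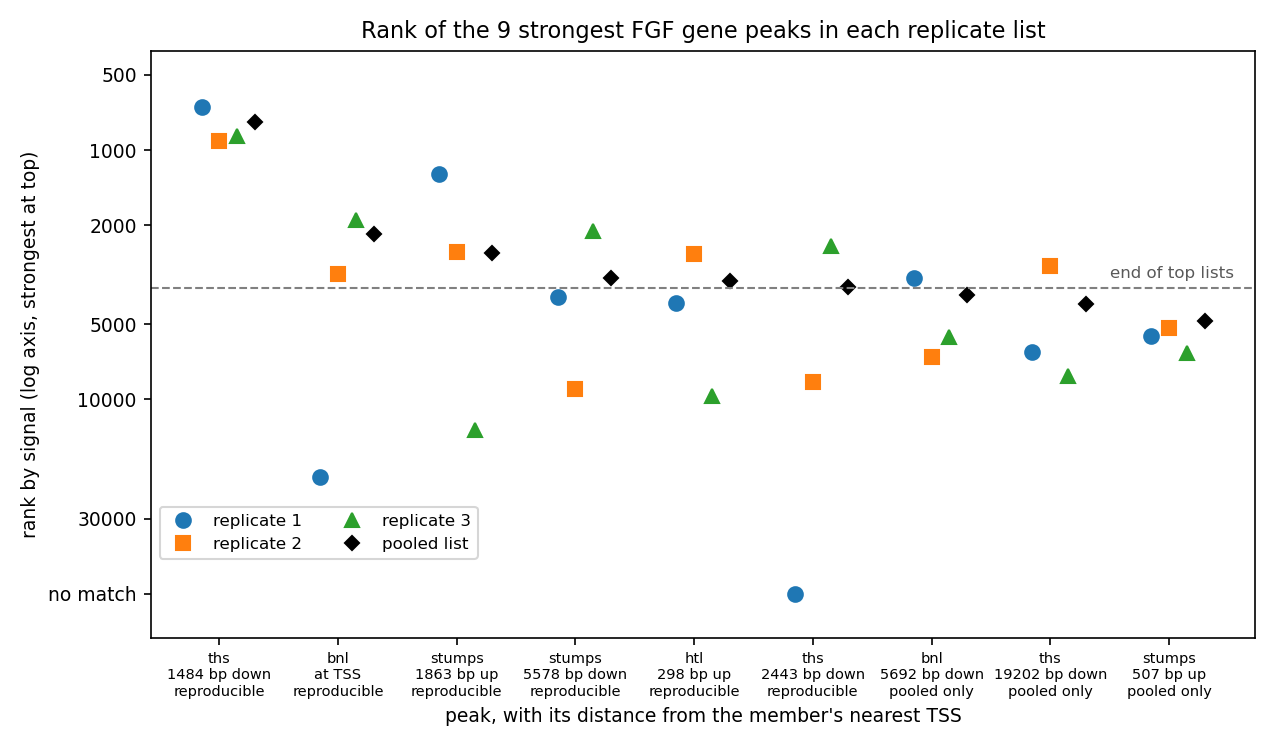
Rank in each list of the 9 member peaks with a pooled −log10 q of at least 2, in pooled order, on a logarithmic axis with the strongest at the top; symbols mark the replicates and the pooled list, and the dashed line the length of the top lists (3586). The ths peak at 11791850 ranked 671, 917 and 876, the bnl peak at the TSS was at 20469 in replicate 1 and 1909 in replicate 3, and the other ths peak had no match in replicate 1.

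The order of the genes by their single best peak also varied. In the pooled list it was ths (rank 773), bnl (2178), stumps (2580), htl (3344), btl (6735) and pyr (7518). In replicate 1 it was ths (671), stumps (1246), pyr (2585), bnl (3249), htl (4087) and btl (5834). In replicate 2 it was ths (917), stumps (2565), htl (2616), bnl (3149), btl (5566) and pyr (8186). In replicate 3 it was ths (876), bnl (1909), stumps (2108), pyr (2857), htl (6680) and btl (7045). Thus ths was first in every list, while pyr moved between the third place and the last, and btl was last or next to last throughout.

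Counts for the FGF genes are set here beside the shares over all genes, and 6 genes are too few to show whether they differ. A reproducible summit lay in the window of 4 of the 6 members, against 57.7% of 13945 protein-coding genes. A reproducible summit within 1 kb of a TSS, called a promoter peak here, was found at 2 members, htl and bnl, against 21.1% of genes. The htl peak is at its internal TSS, so with only the first TSS of each gene the count was 1. As the gene of the nearest TSS to a reproducible summit, 3 members were found (htl, bnl and ths), against 18.8% of genes. A top-list summit lay in the window of 4 members in each replicate, against 57.3% of genes in replicate 1, 57.3% in replicate 2 and 56.1% in replicate 3. In replicates 1 and 3 the 4 were bnl, pyr, ths and stumps, and in replicate 2 htl took the place of pyr. Between replicates 1 and 3 only the strongest ths peak was shared. In replicate 1 the others included peaks in the bnl first intron, in pyr coding sequence and upstream of stumps. The rest were in ths, at positions 11758595 (rank 2928) and 11782167 (rank 2960). In replicate 3 the others were at the bnl TSS, at the pyr promoter, downstream of stumps and in ths at position 11792809 (rank 2434). The bnl and pyr peaks of replicate 1 had a −log10 q of 1.31 and 1.83, below 2. The replicate 1 peaks of ths at 11758595 and 11782167 were also below 2, with 1.58 and 1.55. With 6 genes, 1 gene more or less moves these shares widely. Member windows were longer than usual, with a median of 42473 bp against 22166 bp over all genes, and a longer window can hold more summits by its length alone. The density of pooled summits was 2.66 per 10 kb at the median member, from 2.19 at btl to 3.34 at stumps, against 3.06 at the median gene.

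The best pooled signal of a member window had a median of 105, against 116 over the 13366 genes with any pooled summit in their window. A higher best rank than that of ths was found at 21.8% of all genes. For bnl the share was 44.4%, for stumps 48.9%, for htl 55.7%, for btl 71.9% and for pyr 74.4%. The members were therefore spread over the distribution. By signal, 4 of the 6, stumps among them, were below 116, a median that leaves out genes without a pooled summit. The shares by rank are of all 13945 genes, which is why stumps stood at 48.9% there.

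**Figure D3:**
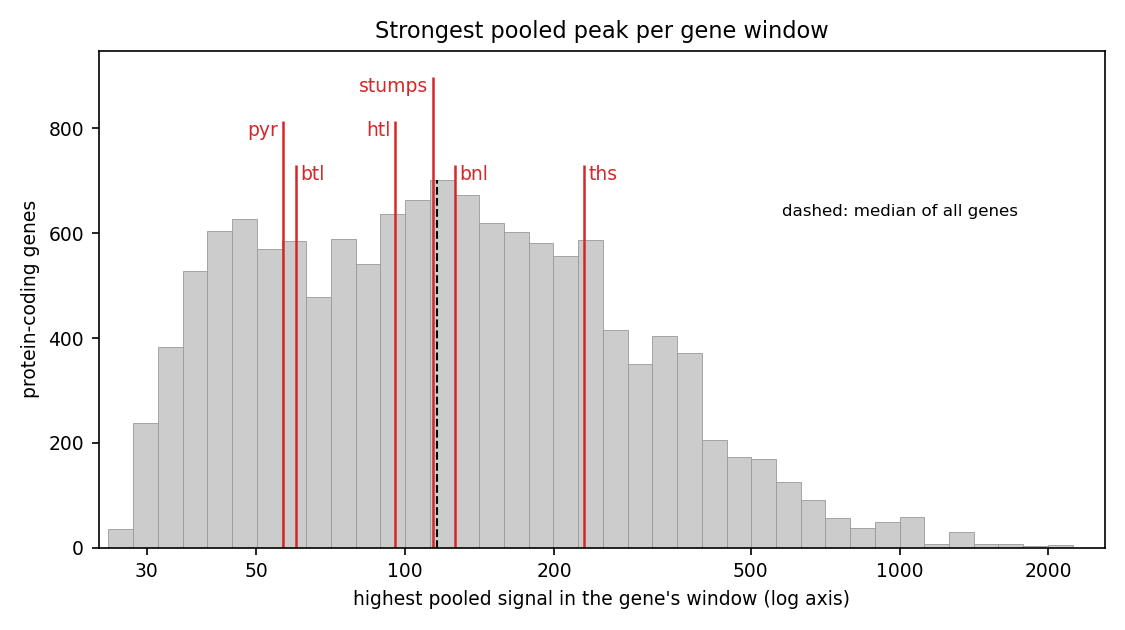
Distribution over protein-coding genes of the highest pooled signal in each gene's window, on a logarithmic horizontal axis, with the number of genes on the vertical axis. Red lines mark the 6 FGF genes, from pyr at 56.5 to ths at 230.2, and the dashed line marks the median of 116.

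The 76 pooled summits of the members were mostly in introns or between genes. The gene body outside exons held 41 (53.9%), against 38.4% of all pooled summits, and coding sequence held 9 (11.8%), against 23.8%. Intergenic sequence held 21 (27.6%, against 27.5%) and 5' UTRs held 5 (6.58%, against 8.53%). The share of bases in each class was not counted for the member windows, so these shares cannot be told apart from the make-up of the windows. Some of the 76 peaks overlap one another and match the same replicate peak. Of the 76, 47 were within the genes themselves, 43 were nearest to a TSS of a member among protein-coding genes, and 12 were within 1 kb of a member TSS, 7 of these on the upstream side. Of the 6 reproducible member summits, 0 were in coding sequence, against 0.948% of all reproducible summits. The pooled list includes background, and 9 of the 76 (11.8%) reached a −log10 q of 2, against 17.5% of all pooled peaks. A match was found in replicate 1 for 46.1% of the 76, in replicate 2 for 64.5% and in replicate 3 for 67.1%. The shares over all pooled peaks were 55.4%, 69.4% and 70.9%. The median GC content of the 76 peaks was 45.0%, against 45.5% over all pooled peaks. The reproducible member peaks ran from 33.5% GC upstream of stumps to 55.0% at the bnl TSS, and the median over all reproducible peaks was 39.5%.

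The reproducible member peaks held few of the 11 motifs searched on both strands within 100 bp of the summit. The motifs were chosen by name, with earlier results of these data known. The match found was ACGTG, the core bound by bHLH-PAS pairs such as Trachealess with Tango, upstream of bnl with its centre 98 bp from the summit, shown in capitals in the bnl sequence above. This short motif was found in 15.1% of all reproducible windows and in 16.8% of windows of the same length 1000 bp to either side. The GAGAG core bound by GAGA factor was in none of the 6, against 24.4% of all reproducible windows, and in 16 of the 76 pooled windows (21.1%, against 25.1% of all pooled windows). The pooled peak 507 bp upstream of an internal TSS of stumps held it at 3 places. None of the 6 held the DRE (TATCGATA), present in 5.19% of all reproducible windows, or the Zelda site CAGGTAG (1.09%). None held the Tinman site TCAAGTG (3.21%), the ETS core CCGGAA (4.66%) or the GC-rich Mad site GCCGNCGC (2.01%). None held M1BP motif 1 (1.53%), the silencer element reported for Shn with Mad and Medea (0.139%), or the E-boxes CACATG (7.64%) and CATATG (6.92%). Among the 76 pooled windows, 12 held CACATG (15.8%, against 10.03% of all pooled windows) and 7 held ACGTG (9.21%, against 18.15%). The Tinman site was in 4 (5.26%, against 3.71%), the ETS core in 4 (5.26%, against 6.98%) and the Mad site in 3 (3.95%, against 4.88%). CATATG was in 2 (2.63%, against 5.32%) and the Zelda site in 1 (1.32%, against 1.503%). The motifs may overlap one another. A match is a description of the letters, and no match says only that they are not in the window.

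Other genes of the pathway were examined from a list of 33 genes, of which 14 (42.4%) had a promoter peak, against the same 21.1% of all genes. The list was chosen with earlier results of these data known, so the higher share cannot be read as a result about the pathway. All 3 nuclear outputs had one: pnt, an ETS activator (rank 3116), aop, the ETS repressor Yan (505), and bs, the serum response factor of terminal tracheal cells (1273). The pnt peak had no match in replicate 1. Of 9 genes of the cascade from receptor to MAP kinase, 4 had one. These were drk, the Grb2 adaptor (rank 1854, 100 bp upstream), csw, the SHP2 phosphatase (2027, 59 bp upstream), Ras85D, the Ras GTPase (645, 72 bp upstream), and the kinase gene Raf (124, 875 bp downstream). Sos, ksr, cnk and Dsor1 had pooled promoter summits only, with signals from 37.8 at Sos to 77.5 at cnk, and rl, the MAP kinase gene, had none.

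Of 3 feedback inhibitors, RasGAP1 had a promoter peak 718 bp upstream of its TSS, at rank 100 with a signal of 560.3, higher than every peak in the member windows. The others had pooled promoter summits below the reproducible list, with signals of 77.1 at sty, which encodes Sprouty, and 88.8 at the phosphatase gene Mkp3. Of 10 genes for heparan sulfate synthesis or its carrier proteins, which FGF ligands need to bind their receptors well, 6 had a promoter peak. They were the sulfotransferase genes Hs2st (rank 130) and sfl (2551), the polymerase genes ttv (1143) and sotv (3108), the UDP-glucose dehydrogenase gene sgl (1162) and the glypican gene dlp (3219). The other glypican gene, dally, had a pooled signal of 84.7 at 33 bp from its TSS. Of 8 transcription factors that act in the trachea or mesoderm, where btl and htl are expressed, 0 had a promoter peak. Pooled promoter summits were present at 7 of the 8, from a signal of 27.3 at twi to 80.6 at tin, with 72.7 at trh, and kni had none.

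Of the strongest promoter peaks of these 14 genes, 1 for each, 10 were in every top list, 2 (pnt and dlp) in 2 lists and 2 (sfl and sotv) in 1. The share in every top list was 53.8% over all reproducible peaks and 87.2% over those at or above the median signal. At 6 of the 14 another gene also has a TSS within 1 kb of the summit, namely mars beside drk, Rlb1 beside Ras85D, Vps8 beside sfl, CG10731 beside sotv, RanGAP beside Hs2st and RecQ5 beside dlp. The share of such shared promoters over all reproducible peaks is not given here. Among all reproducible summits, 65.1% were within 1 kb of a TSS. In the member windows, 2 of the 6 reproducible summits were within 1 kb of a TSS of htl or bnl, and the 2 beside stumps were within 1 kb of a TSS of CG7987 or CG14853. When the reproducible list was cut at its median signal, 8 pathway genes and 0 members kept a promoter peak.

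**Figure D4:**
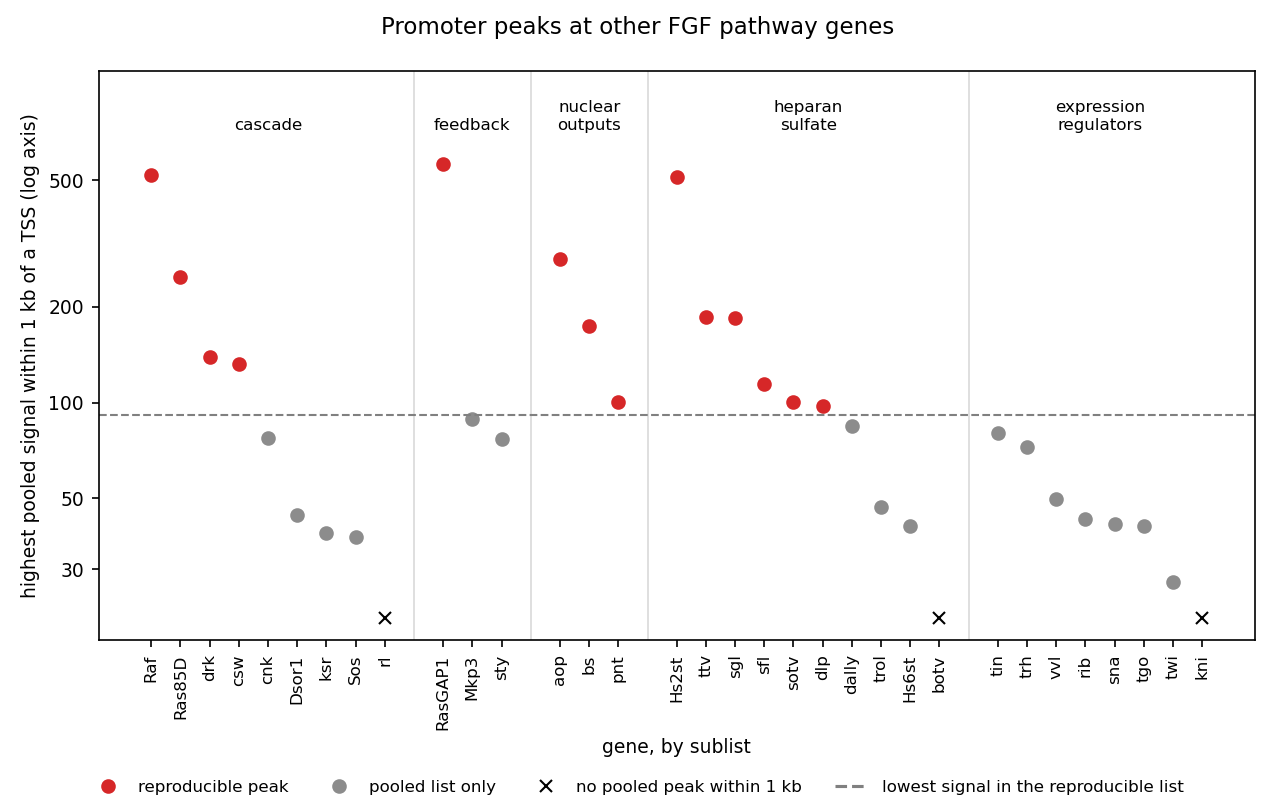
Highest pooled signal within 1 kb of a TSS for each gene of the pathway list, on a logarithmic axis, grouped by role, with red points for reproducible peaks, grey points for peaks of the pooled list only and crosses for no peak; the dashed line is the lowest signal of the reproducible list. RasGAP1 at 560.3 and Raf at 517 lie highest, and no regulator of tracheal or mesodermal expression has a red point.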

How the data were processed

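Peak lists on dm6 from 3 biological replicates of Shn-GFP ChIP-seq were used. The authors deposited, for each replicate and for the pooled replicates, peaks with background that fed an irreproducible discovery rate (IDR) step, and an optimal list thresholded by IDR, per the deposited notes. In each deposited list, column 7 holds a signal value and column 9 a −log10 q value for every peak. Not given in the sources used here: which peak caller was run and which IDR threshold was applied. A control used by the authors in calling peaks, and the dm3 lists, were not analysed here.

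Python 3.11.15 was used with numpy 2.4.6, pandas 2.3.3 and matplotlib 3.10.9. Gene models were those of Ensembl release 115 (BDGP 6.54), sequence from Release 6, and coordinates are 1-based. Peaks matched when they overlapped by at least 1 bp, and where several matched, the one of highest signal was used. Promoter peaks had a summit within 1 kb of any TSS of the gene. The assignment of summits and the motif search were tested on simulated data. The listed symbols numbered 34, and Gap1 is a synonym of RasGAP1, which leaves 33 genes.

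The members, gene list and motifs were chosen with earlier results of these data known. The genes named are the 6 members, the gene nearest to each of their reproducible peaks and to their strongest pooled peak, the pathway genes with a promoter peak, and the rank neighbours of the strongest member peak; 1 gene that this rule names is not reported here. Other pathway genes, and further pooled peaks of the members, were named after their values were seen. No result has a test, because there is 1 group. Alternatives were other windows around genes and TSSs, the first TSS only, stricter peak sets, other match rules, other ranks, each replicate left out and other motif windows.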

Additional observations from a re-analysis of the deposited data

How the results depend on the processing

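Of 28 alternative values, 16 differed from the value reported by a factor of at most 1.5 and 12 moved further. Among the 16, pathway genes with a promoter peak numbered 21 within 5 kb of a TSS, in place of 14. Reproducible summits of the members, 6 in the main setting, numbered 4 with the gene span alone. Taking instead all pooled peaks with a −log10 q of at least 2 gave 9. With windows of 20 kb each side, 10 reproducible summits were assigned to the members in place of 6, and with the list cut at its median signal there was 1. With the gene span alone 47 pooled summits were assigned in place of 76, and 9 with a −log10 q of at least 2. Members with a promoter peak numbered 4 within 5 kb of a TSS in place of 2, 1 with the first TSS only and 0 with the list cut at its median signal, under which pathway genes with a promoter peak numbered 8 in place of 14. Member peaks in every top list, 1 with all replicates, numbered from 1 to 2 with a replicate left out. Member peaks with a motif match numbered 0 within 50 bp and 4 within 250 bp, in place of 1 within 100 bp. These moves follow from longer or shorter windows, fewer peaks or fewer replicates. No paired analysis was possible because the 3 replicates form 1 group. The lowest signal was 27.0 in the pooled list and 91.6 in the reproducible list. Read depth is unknown, so the weakest binding that could have been detected at btl or pyr is not known.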
